A study of Mus musculus with 6 samples.

Results

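The 10 genes described here handle lipid in macrophages and neighbouring cells: Pla2g7 and Lpl cut lipids outside the cell, Cd36 takes them up, Fabp4 and Fabp5 carry fatty acids inside it, Plin2 coats the droplets that store them, Abca1, Abcg1 and Apoe export cholesterol, and Gpnmb is a membrane glycoprotein of lipid-loaded phagocytes. They were chosen by name, with earlier results of these data known. All 10 of the 10 were measured, among 19935 genes with a probe set that names a single symbol. RNA from whole lung was hybridised to 6 arrays, 3 from wild-type mice and 3 from mice transgenic for Scnn1b (Scnn1b-Tg), which encodes the β chain of the epithelial sodium channel, and all mice were of the C57BL/6 background. The labels give no age, sex or further treatment and do not name the promoter that drives the transgene; in the Scnn1b-Tg model as it is generally known, a club cell promoter directs it to the airways. The stated aim of the study was a search for genes with a part in emphysema. Whether each array stands for its own animal is not stated, so that p-values speak of the spread among these samples, which may be technical, and with 3 arrays a genotype the precision is limited.

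Macrophages of the lung take up surfactant, dead cells and lipoproteins, and store what they cannot burn as cholesterol esters and triglycerides in droplets. The nuclear receptors of the LXR family sense an excess of sterol and switch on Abca1, Abcg1 and Apoe, while PPARγ governs fatty acid uptake and binding through genes such as Cd36, Fabp4 and Plin2. Alveolar macrophages depend on PPARγ, and macrophages swollen with lipid droplets are called foam cells. Several of the 10 genes are shared with other cells of lung tissue: Cd36, Fabp4 and Lpl function at the capillary wall, and Fabp4, Cd36 and Lpl are also abundant in fat cells.

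On the arrays the sodium channel gene followed the labels, with an intensity of 108 to 172 in wild type and 1333 to 1527 in Scnn1b-Tg. Lung identity was plain from the surfactant protein gene Sftpa1, whose intensity averaged 4224 ± 556 (SD, n = 3) for wild-type arrays and 4626 ± 239 (SD, n = 3) for Scnn1b-Tg arrays. Along the first principal component of all genes wild type replicate 2 stood apart, at 16.3 against -8.91 to 5.46 for the other arrays, and along the second Scnn1b-Tg replicate 3 stood apart, at 13.3 against -8.03 to 2.47. Intensities are RMA values on a linear scale, with array medians from 47.6 to 48.5 and lowest values from 18.3 to 18.6. They are compared between arrays for the same gene, or for the same list summed over its genes. Such a sum follows the brightest genes of its list.

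None of the 10 genes passed the test between genotypes (limma, Benjamini-Hochberg adjusted p under 0.05 over all genes): 0 of 10 were called, beside 1 of 19935 genes (0.00502%), which was Scnn1b. At an unadjusted p under 0.05 there were 3, Pla2g7, Gpnmb and Lpl, all with a higher mean in Scnn1b-Tg, beside 3.96% of all genes in that direction, and 0 had a lower mean at that p, beside 2.05% of all genes. For the same 3 genes every Scnn1b-Tg array lay above every wild-type array, beside 6.26% of all genes, and for 0 of the 10 every Scnn1b-Tg array lay below (4.41% of all genes). The log2 fold change was above 0 for 8 of the 10, beside 53.2% of all genes, and its median was 0.10, beside 0.01 over all genes. Without wild type replicate 1 the count above 0 was 6 of 10 with a median of 0.06. Without wild type replicate 2 it was 9 of 10 with a median of 0.15, and with both arrays that stood apart left out 9 of 10 with a median of 0.17. Wild type replicate 1 was below the mean of the 6 arrays for all 10 genes, and it was the lowest array for 4 of them. For these counts on wild type replicate 1 the share over all genes was not counted.

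**Figure D1:**
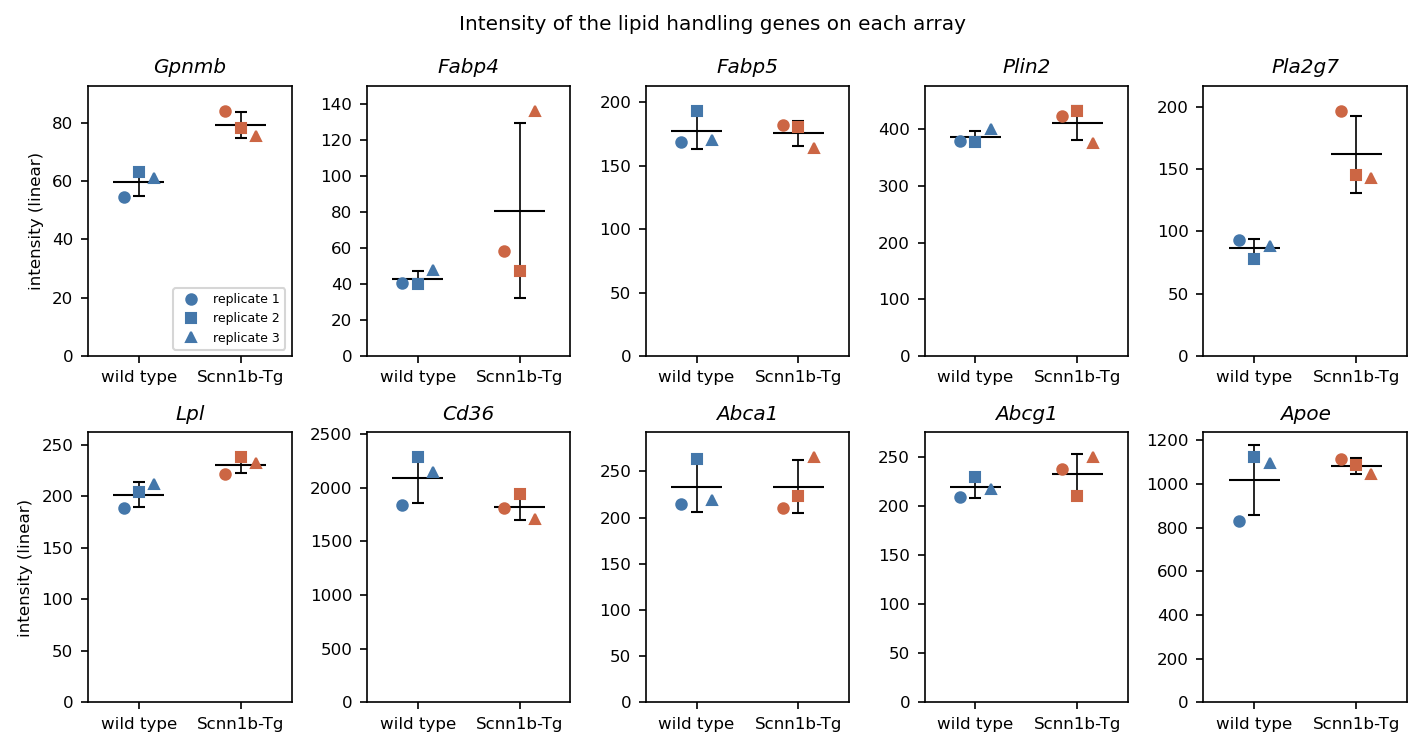
Linear RMA intensity (vertical axes, each from 0) of the 10 lipid handling genes on the 3 wild-type and 3 Scnn1b-Tg arrays; each point is 1 array, its shape gives the replicate number, and bars show the mean ± SD of 3 arrays. For Pla2g7, Gpnmb and Lpl the groups do not overlap, for Fabp4 Scnn1b-Tg replicate 3 lies at 136 with the other arrays between 39.7 and 58.3, and for the remaining 6 genes the groups overlap.

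Promoter sequences of 3 of these genes are shown, since Pla2g7 and Gpnmb had the clearest separation of the arrays and Abca1, the classical LXR target, had almost none. RefSeq-derived windows of build GRCm38.p6 were at hand for 6 of the 10 genes. Each window holds 250 bases before and 50 after an annotated start, and only the 250 bases before the start are printed, 5′ to 3′ on the strand of the gene. Capitals mark the letters CACGTG (an E-box, bound by MITF and TFE family factors, which control Gpnmb and lysosomal genes) and the DR4 element, a pair of LXR half-sites with a spacer in the form known from the Abca1 promoter. The windows are chr17:43568201-43568450 on the plus strand for Pla2g7, chr6:49036268-49036517 on the plus strand for Gpnmb and chr4:53159896-53160145 on the minus strand for Abca1.
Pla2g7: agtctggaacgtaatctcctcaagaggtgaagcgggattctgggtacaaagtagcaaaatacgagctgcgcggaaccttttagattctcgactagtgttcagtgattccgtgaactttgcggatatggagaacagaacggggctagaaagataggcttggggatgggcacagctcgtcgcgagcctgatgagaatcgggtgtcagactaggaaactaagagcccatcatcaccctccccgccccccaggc
Gpnmb: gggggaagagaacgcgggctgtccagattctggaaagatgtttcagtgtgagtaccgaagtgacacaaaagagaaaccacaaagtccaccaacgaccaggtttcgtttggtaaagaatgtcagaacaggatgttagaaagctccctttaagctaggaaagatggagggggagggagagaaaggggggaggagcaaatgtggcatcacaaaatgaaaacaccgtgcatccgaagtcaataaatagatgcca
Abca1: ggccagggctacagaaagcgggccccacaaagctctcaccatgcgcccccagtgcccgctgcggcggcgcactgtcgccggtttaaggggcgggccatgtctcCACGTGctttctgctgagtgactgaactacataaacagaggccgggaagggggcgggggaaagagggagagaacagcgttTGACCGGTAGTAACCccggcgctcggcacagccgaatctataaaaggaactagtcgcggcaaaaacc
In the Abca1 window CACGTG began 147 bases before the start and the paired LXR half-sites 67 bases before it. Searched on both strands of all 32851 windows of 300 bases, CACGTG was found in 7.15% and the DR4 element in 0.0487%. The DR4 letters follow the form known from the Abca1 promoter, so the match there was given in advance. A further 3 motifs were searched: CATGTG, another E-box, was in 14.15% of windows, TGACTCA, the AP-1 motif, in 5.20%, and GAGGAAGT, bound by the macrophage factor PU.1, in 3.20%. The windows of Pla2g7, Cd36 and Apoe held none of the 5 motifs, that of Plin2 held CACGTG across its start, and that of Gpnmb held TGACTCA from base 9 after the start, outside the printed stretch. These matches describe letters in the windows, and binding was not measured.

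Of the enzymes that cut lipids outside the cell, Pla2g7 encodes the secreted phospholipase A2 that inactivates platelet-activating factor and oxidised phospholipids. Its intensity was 92.8, 78.1 and 88.5 on wild type replicates 1 to 3 and 197, 145 and 143 on Scnn1b-Tg replicates 1 to 3. All 3 transgenic arrays lay well above all 3 wild-type arrays, with replicate 1 the highest. Wild-type arrays averaged 86.5 ± 7.54 (SD, n = 3) and Scnn1b-Tg arrays 162 ± 30.6 (SD, n = 3), which makes 1.86-fold or 0.89 ± 0.13 (SE) as log2 fold change (95% confidence interval of the fold 1.49 to 2.31). By log2 fold change Pla2g7 ranked 17 of 19935 genes from the top, and its p-value ranked 34. Its adjusted p in limma was 0.151, and it passed in 3 of 16 alternative fits: 0.0196 when the 6645 dimmest genes were dropped, 0.0203 when the variance was given a trend over intensity and fitted robustly, and 0.0320 when 16 was taken off each intensity before log2. With a single array left out the log2 fold change lay between 0.74 and 0.97, and without both arrays that stood apart it was 0.90.

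Lpl encodes lipoprotein lipase, which frees fatty acids from circulating triglycerides at the capillary wall and is also made by macrophages. Its intensity was 188, 204 and 212 on the wild-type arrays and 222, 238 and 232 on the Scnn1b-Tg arrays. The groups were separate but close, with 212 as the highest wild-type value and 222 as the lowest transgenic one. The log2 fold change was 0.20 ± 0.06 (SE), or 1.15-fold (95% confidence interval 1.04 to 1.26), with an adjusted p of 0.649 in limma. Leaving out 1 array at a time gave 0.15 to 0.23.

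Cd36, the scavenger receptor and fatty acid translocase, was the member with the lowest log2 fold change. Its intensity was 1837, 2286 and 2149 on the wild-type arrays and 1811, 1941 and 1704 on the Scnn1b-Tg arrays. The transgenic values lay in the lower part of the range, but wild type replicate 1 fell among them. The log2 fold change was -0.20 ± 0.09 (SE), with a 95% confidence interval from -0.41 to 0.02 and an adjusted p of 0.842 in limma. Leaving out wild type replicate 2 gave -0.13, leaving out wild type replicate 1 gave -0.29, and the value was -0.08 with neither of the arrays that stood apart. Markers of capillary endothelium, where Cd36 is abundant, had a log2 fold change above 0 for 2 of 14 genes, with a median of -0.03. Their summed intensity was 8361 to 8861 in wild type and 7762 to 8634 in Scnn1b-Tg, and none of the 14 was near the lowest intensity of the arrays. The largest values were -0.33 ± 0.11 (SE) for Ednrb, the endothelin B receptor, and -0.16 ± 0.09 for the tight junction gene Cldn5, which was -0.26 without Scnn1b-Tg replicate 3. The count above 0 was 8 of 14 without wild type replicate 3 and 7 of 14 without Scnn1b-Tg replicate 1, so it rests on those arrays. The part of endothelial RNA in the Cd36 values was not tested.

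The fatty acid binding proteins Fabp4 and Fabp5 shuttle fatty acids through the cytoplasm to the nucleus and to sites of oxidation or storage. Fabp4 had an intensity of 40.7, 39.7 and 47.5 on the wild-type arrays and 58.3, 47.3 and 136 on the Scnn1b-Tg arrays. One array set its mean apart: on Scnn1b-Tg replicate 3 log2 intensity was 1.56 above the mean of the other arrays, while replicate 2 lay within the wild-type range. The log2 fold change was 0.76 ± 0.36 (SE), with a 95% confidence interval from -0.09 to 1.62 and an adjusted p of 0.856 in limma. Without Scnn1b-Tg replicate 3 it was 0.31, without Scnn1b-Tg replicate 2 it was 1.07, and 0.26 when both arrays that stood apart were left out.

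Fat cell markers were also high on Scnn1b-Tg replicate 3. Of 12 measured markers 8 had their highest value there. The share of all genes with their highest value on that array, which stood apart, was not counted. The summed intensity of the list was 581 to 610.2 in wild type, 578 and 563 on Scnn1b-Tg replicates 1 and 2, and 1089 on replicate 3. Car3, the carbonic anhydrase of fat and muscle, had an intensity of 39.0, 55.5 and 59.4 in wild type, 36.5 and 32.4 on Scnn1b-Tg replicates 1 and 2, and 474 on replicate 3. Adipoq, the gene of the fat cell hormone adiponectin, lay between 22.0 and 23.8 on the other arrays, close to the lowest values of those arrays. It lay at 44.3 on Scnn1b-Tg replicate 3. Retn, the gene of the adipokine resistin, which was named after its values were seen, lay between 32.0 and 34.1 on the other arrays and at 54.0 on that one. Lep, the leptin gene, stayed between 24.7 and 26.8 on all 6 arrays, close to the lowest values of the arrays. Slc36a2, also named after its values were seen, was lowest on Scnn1b-Tg replicate 3, at 154 against 168 to 183 elsewhere. Over the list 9 of 12 markers had a log2 fold change above 0, and 3 of 12 without Scnn1b-Tg replicate 3. Brown fat markers had a summed intensity of 192 to 216 in wild type and 200.2 to 206 in Scnn1b-Tg, and their largest log2 fold changes were 0.11 ± 0.08 (SE) for Cox8b and -0.11 ± 0.06 for Cox7a1, both muscle-type cytochrome oxidase subunits. Leaving out 1 array at a time gave 0.05 to 0.17 for Cox8b and -0.16 to -0.07 for Cox7a1. The part of fat tissue in the Fabp4 values was not tested.

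Among the named genes outside the 10, those whose profile over the 6 arrays lay nearest to that of Fabp4 were Jchain, the joining chain of polymeric antibodies, the vault RNA Vaultrc5 and Igha, the constant region of IgA heavy chains. The measure was the root mean square difference of log2 values centred on their mean, at 0.20, 0.25 and 0.26 respectively. Jchain had an intensity of 21.9 to 25.6 on the other arrays, close to the lowest values of those arrays. It had 49.6 on Scnn1b-Tg replicate 3. Igha lay between 35.3 and 51.9 on the other arrays and at 86.1 on Scnn1b-Tg replicate 3.

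**Figure D2:**
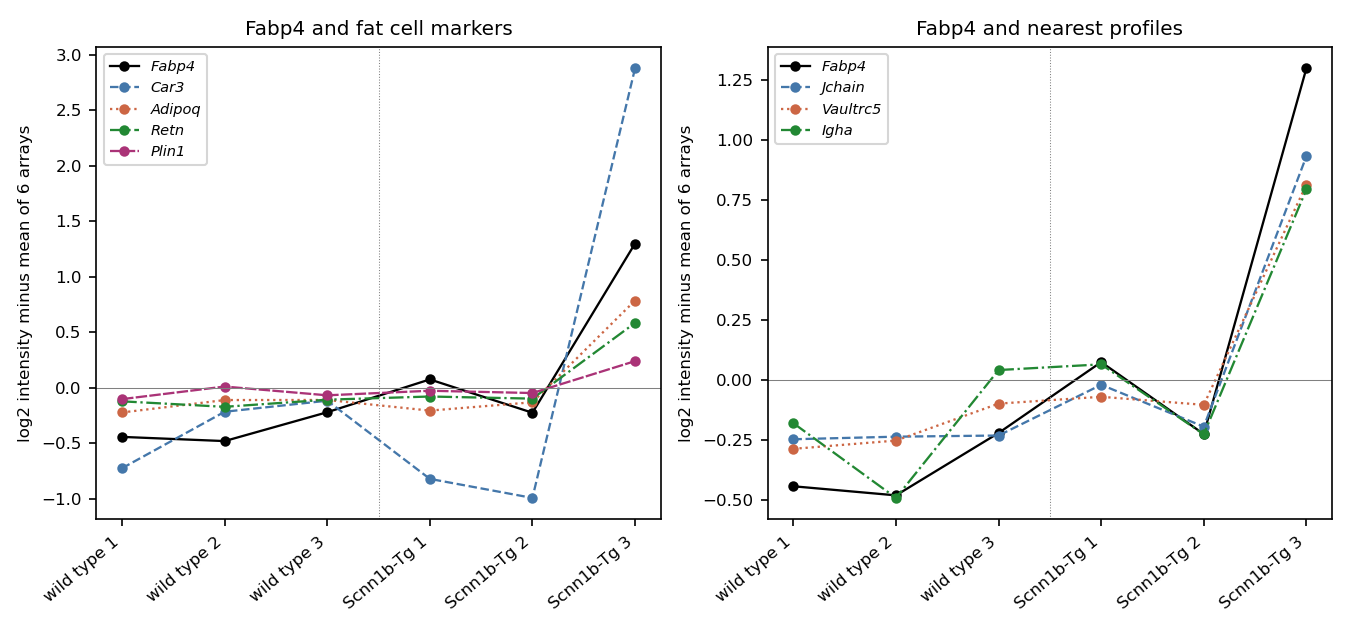
Log2 intensity minus the mean of the 6 arrays (vertical axes) on each array (horizontal axes) for Fabp4 with 4 fat cell markers (left) and with the 3 genes of nearest profile (right); lines join the values of 1 gene and imply no order of the arrays. All genes drawn have their highest value on Scnn1b-Tg replicate 3, where Fabp4 stands 1.56 and Adipoq 0.94 above the mean of the other arrays. The 4 fat cell markers drawn are among the 8 of 12 that were highest on that array, and markers not highest there are not drawn.

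Fabp5, the epidermal form of the binding protein, which alveolar cells also express, differed by less than the spread between arrays. Its intensity was 169, 193 and 170.2 on the wild-type arrays and 182, 180.4 and 164 on the Scnn1b-Tg arrays. The groups overlapped fully, and the log2 fold change was -0.01 ± 0.07 (SE), with a 95% confidence interval from -0.18 to 0.16 (adjusted p = 0.995 in limma). A second probe set for Fabp5, matched by the annotation to the same RefSeq transcripts, gave -0.02 ± 0.08. The sign of Fabp5 turned in 4 of 16 alternatives, and the largest of these values was 0.10.

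Plin2, the perilipin that coats lipid droplets in most cells, differed by less than the spread between arrays. Its intensity was 379.8, 378 and 399.7 on the wild-type arrays and 424, 433 and 376 on the Scnn1b-Tg arrays. On Scnn1b-Tg replicates 1 and 2 it lay above all wild-type arrays, and on replicate 3 it was the lowest of the 6. As log2 fold change the difference was 0.09 ± 0.06 (SE), with a 95% confidence interval from -0.06 to 0.24 (adjusted p = 0.927 in limma). It was 0.15 without Scnn1b-Tg replicate 3 and 0.05 without Scnn1b-Tg replicate 2.

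The cholesterol exporters showed no difference beyond the spread between arrays. Abca1 loads cholesterol and phospholipid onto lipid-poor apolipoproteins, and its intensity was 215, 264 and 219 in wild type and 211, 224 and 265 in Scnn1b-Tg. Both groups spanned nearly the same range, and the log2 fold change was 0.0035 ± 0.11 (SE), with a 95% confidence interval from -0.26 to 0.26 (adjusted p = 0.999 in limma). Abcg1, which passes cholesterol on to high-density lipoprotein and keeps surfactant lipid from piling up in alveolar macrophages, had an intensity of 209.6, 230.0 and 218 in wild type and 238, 210.3 and 250.3 in Scnn1b-Tg. Its replicates 1 and 3 in Scnn1b-Tg were above all wild-type arrays and replicate 2 was not. Its log2 fold change was 0.08 ± 0.07 (SE), with a 95% confidence interval from -0.09 to 0.26 (adjusted p = 0.941 in limma), and it was 0.03 without Scnn1b-Tg replicate 3 and 0.16 without Scnn1b-Tg replicate 2. Apoe, the apolipoprotein that macrophages secrete to carry cholesterol away, had an intensity of 832, 1123 and 1095 in wild type and 1116, 1085 and 1045 in Scnn1b-Tg. Wild type replicate 1 was the low array and the other 5 lay close together. For Apoe the log2 fold change was 0.10 ± 0.11 (SE), with a 95% confidence interval from -0.17 to 0.37 (adjusted p = 0.971 in limma), and -0.04 without wild type replicate 1. As a ratio of Scnn1b-Tg to wild type the intervals ran from 0.837 to 1.20 for Abca1, from 0.938 to 1.20 for Abcg1 and from 0.891 to 1.29 for Apoe.

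Gpnmb encodes a glycoprotein of phagosomes and lysosomes that accumulates in phagocytes under lysosomal load. Its intensity was 54.5, 63.1 and 61.1 on the wild-type arrays and 84.2, 78.2 and 75.4 on the Scnn1b-Tg arrays. Every transgenic array was above every wild-type array, and the spread within each genotype was smaller than the gap between their means. Wild-type arrays averaged 59.6 ± 4.52 (SD, n = 3) and Scnn1b-Tg arrays 79.3 ± 4.50 (SD, n = 3), which makes 1.33-fold (95% confidence interval 1.19 to 1.498) or 0.41 ± 0.07 (SE) as log2 fold change. Its p-value ranked 60 among all genes, its adjusted p in limma was 0.220, and over 16 alternatives the adjusted p ran from 0.0777 to 0.634. Its log2 fold change stayed between 0.35 and 0.46 when any 1 array was left out.

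**Figure D3:**
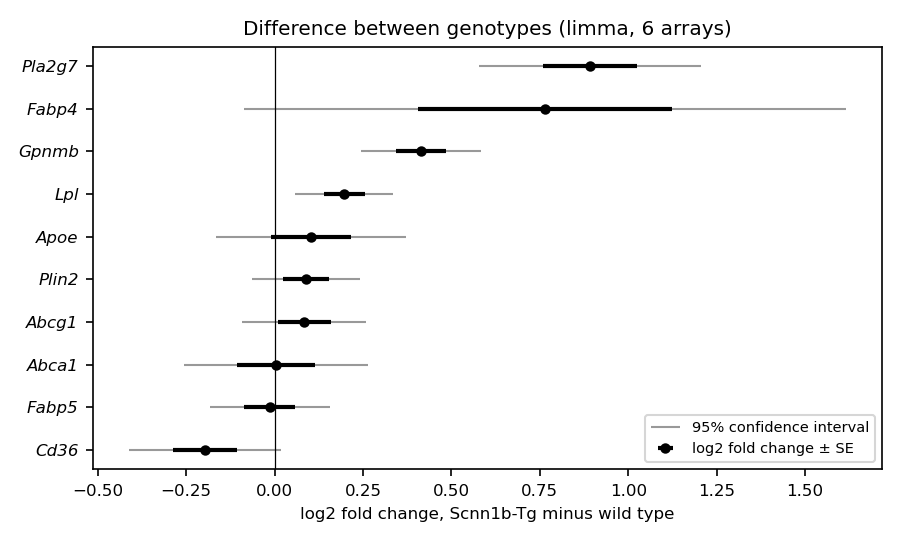
Log2 fold change of each of the 10 genes (horizontal axis, Scnn1b-Tg minus wild type; points), with the SE (thick bars) and the 95% confidence interval (thin lines) of the limma fit over 6 arrays. Intervals of Pla2g7, Gpnmb and Lpl lie above 0, that of Fabp4 is the widest, from -0.09 to 1.62, and the other 6 include 0.

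Macrophage markers, the context of Pla2g7 and Gpnmb, were for the most part higher in Scnn1b-Tg. Of 12 measured macrophage markers 10 had a log2 fold change above 0, 8 of them at an unadjusted p under 0.05 and 0 with an adjusted p under 0.05 in limma, and the median was 0.35. Itgam, the CD11b integrin chain, had 0.91 ± 0.15 (SE), and Adgre1, the F4/80 antigen, 0.76 ± 0.17. Below 0 were Lyz2 (-0.12 ± 0.11) and Fcgr1 (-0.06 ± 0.07). The mean deviation of the list from its 6-array mean was -0.19 to -0.12 on the wild-type arrays and 0.10 to 0.21 on the Scnn1b-Tg arrays. Its summed intensity, which Lyz2 (lysozyme) dominates, overlapped, at 4302 to 5177 in wild type and 4425 to 4941 in Scnn1b-Tg. Of 10 alveolar macrophage markers 8 were above 0 with a median of 0.19, and 7 with a median of 0.10 without Scnn1b-Tg replicate 3. The largest values were those of the chitinase-like Chil3 (1.34 ± 0.19) and of Itgax, CD11c (0.53 ± 0.08). The 2 below 0 were Fabp1 (-0.36 ± 0.12) and Krt79 (-0.14 ± 0.10). Fabp1 was dim, at 32.19 to 42.0 in wild type and 25.4 to 32.17 in Scnn1b-Tg, where the lowest values of the arrays were 18.3 to 18.6. At an unadjusted p under 0.05 in limma 5 of the list were higher and 1, Fabp1, was lower. The summed intensity of the alveolar macrophage markers, 1579 to 1934 in wild type and 2960 to 3699 in Scnn1b-Tg, was dominated by Chil3. Alone, Chil3 averaged 963 and 2428. In whole lung, a change in the number of cells of a type and a change in RNA per cell cannot be told apart. The part of macrophage number in the values of Pla2g7, Gpnmb and the other members was not tested.

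By profile, Pla2g7 lay nearest to Adgre1, Itgam and the coagulation factor V gene F5, with root mean square differences of 0.09, 0.10 and 0.10 over the 6 arrays. Each of these 4 genes was highest on Scnn1b-Tg replicate 1 and lowest on wild type replicate 2. The nearest to Gpnmb were Il7r, the interleukin-7 receptor (0.03), Plcg2, a phospholipase C of immune receptor signalling (0.06), and Fgd4 (0.06), each highest on Scnn1b-Tg replicate 1 and lowest on wild type replicate 1. Nearness was the criterion of choice, so these values are descriptions.

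**Figure D4:**
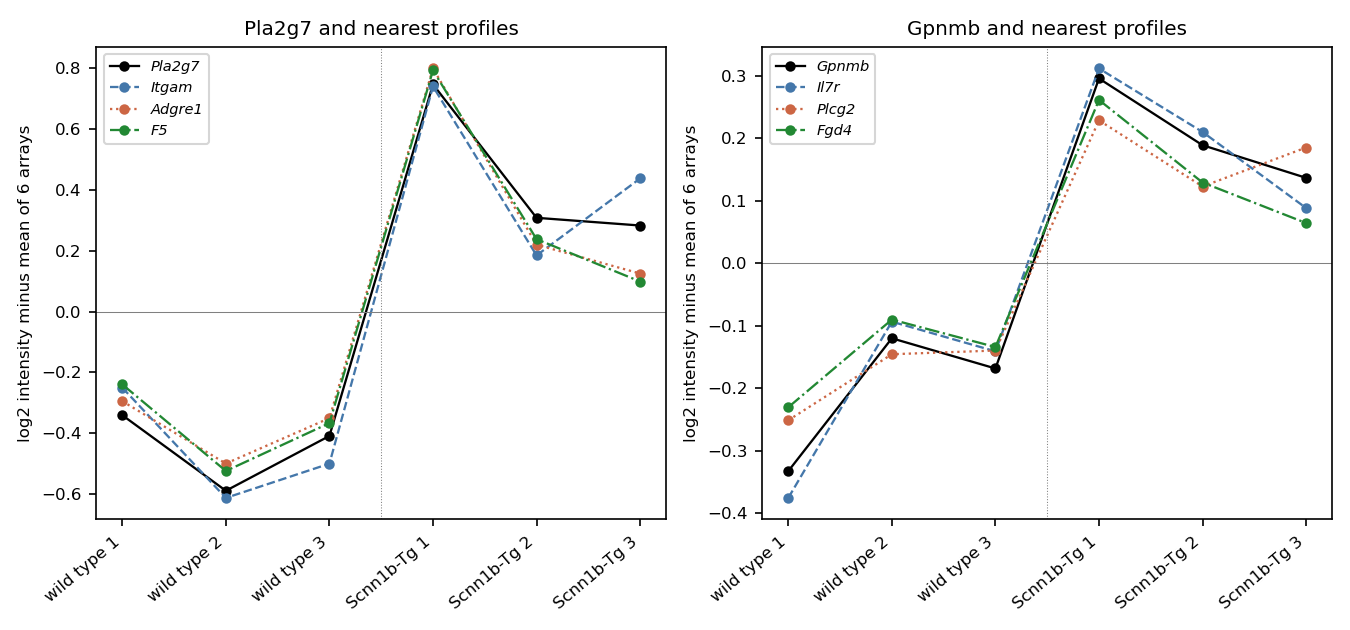
Log2 intensity minus the mean of the 6 arrays (vertical axes) on each array (horizontal axes) for Pla2g7 and the 3 genes of nearest profile (left) and for Gpnmb and its 3 (right); lines join the values of 1 gene and imply no order of the arrays. All 8 genes are below 0 on every wild-type array and above 0 on every Scnn1b-Tg array, and Pla2g7 ranges from -0.59 to 0.75.

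Wider lists of lipid genes, none holding any of the 10, had 0 genes past the adjusted threshold in limma. For all list counts, the share over all genes was 53.2% above 0. At an unadjusted p under 0.05 in limma it was 3.96% higher and 2.05% lower. In the Trem2 and lysosomal programme of lipid-laden macrophages 12 of 17 genes were above 0, 9 at an unadjusted p under 0.05, with a median of 0.20. Mmp12, the macrophage elastase, had 1.95 ± 0.34 (SE) and the cathepsin Ctsk 0.62 ± 0.13. The 5 genes of this list below 0 were Tfeb, Ctsl, Atp6v1c1, Cd9 and Cd63, with values from -0.08 to -0.03. Trem2 itself, the lipid receptor after which the programme is named, had 0.17 ± 0.11, or 0.05 without Scnn1b-Tg replicate 1, and was named after its values were seen. Among phospholipases and platelet-activating factor genes, the company of Pla2g7, 10 of 16 were above 0, 3 at an unadjusted p under 0.05, with a median of 0.05, which was 0.03 without wild type replicate 3 or Scnn1b-Tg replicate 1. The largest values there were those of Lpcat2, which makes platelet-activating factor (0.59 ± 0.12), and the phospholipase-like Plbd1 (0.41 ± 0.11). Of the scavenger receptors, the company of Cd36, 10 of 17 were above 0, 5 at an unadjusted p under 0.05, with a median of 0.03, which ran from 0.02 to 0.10 with 1 array left out, led by the glucan receptor Clec7a (0.48 ± 0.15) and the macrophage antigen Cd68 (0.33 ± 0.04).

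For cholesterol efflux and LXR targets 12 of 19 were above 0 with a median of 0.03, which ran from 0.04 to 0.08 with 1 array left out, and 4 of them had an unadjusted p under 0.05. The largest values were those of Ch25h, the cholesterol 25-hydroxylase (0.28 ± 0.13, SE), which was 0.18 without Scnn1b-Tg replicate 2, and the LXR partner Rxra (0.27 ± 0.08). Of fatty acid uptake, activation and oxidation genes 15 of 26 were above 0 with a median of 0.03, and at an unadjusted p under 0.05 there was 1 in each direction. The majority turned without Scnn1b-Tg replicate 3, at 12 of 26 with a median of -0.01, and the median was 0.0044 and 0.0073 without wild type replicate 1 or 2. The largest absolute values in that list were negative, for the liver and heart binding proteins Fabp1 (-0.36 ± 0.12) and Fabp3 (-0.22 ± 0.11), the latter -0.34 without wild type replicate 2. Lipid droplet genes, the company of Plin2, gave 15 of 20 above 0, 1 at an unadjusted p under 0.05, with a median of 0.08, and 12 of 20 with a median of 0.02 without Scnn1b-Tg replicate 3. They included -0.23 ± 0.12 for the lipase inhibitor Hilpda, which was -0.13 without wild type replicate 2, and 0.22 ± 0.10 for fatty acid synthase, Fasn, which was 0.10 without Scnn1b-Tg replicate 3. Sterol synthesis and LDL uptake genes gave 10 of 18 above 0 with a median of 0.03, again with 1 in each direction at an unadjusted p under 0.05. The count was 9 of 18 without Scnn1b-Tg replicate 3 (median -0.0018) or without wild type replicate 3 (median 0.0038). Msmo1 and Hsd17b7, both sterol synthesis enzymes, had -0.18 ± 0.07 and -0.15 ± 0.09, and Hsd17b7 ran from -0.25 to -0.08 with 1 array left out.

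Among other cells that express members, alveolar type 2 cell markers had 7 of 10 above 0 with a median of 0.03. The majority turned when 1 array was left out, with 3 of 10 without Scnn1b-Tg replicate 3 (median -0.03) and 4 of 10 without wild type replicate 1 (median -0.01), and 5 of 10 without both arrays that stood apart. They had a summed intensity of 18988 to 21196 in wild type and 19723 to 20864 in Scnn1b-Tg. Their largest values were -0.19 ± 0.12 (SE) for Lamp3, which was -0.08 without wild type replicate 2, and 0.14 ± 0.10 for Sftpa1, which was 0.06 when wild type replicate 1 was left out and 0.24 when replicate 2 was. Fibroblast markers had 7 of 10 above 0 with a median of 0.08, but 4 of 10 with a median of -0.0079 without wild type replicate 1, and a median of 0.02 without wild type replicate 2. They had a summed intensity of 6755 to 8340.3 in wild type and 7806 to 8044 in Scnn1b-Tg. The collagen genes Col1a1 (0.30 ± 0.16) and Col1a2 (0.17 ± 0.17) led them, and with 1 array left out they ran from 0.12 (without wild type replicate 2) to 0.46 and from 0.06 (without wild type replicate 3) to 0.39, both highest without wild type replicate 1.

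**Figure D5:**
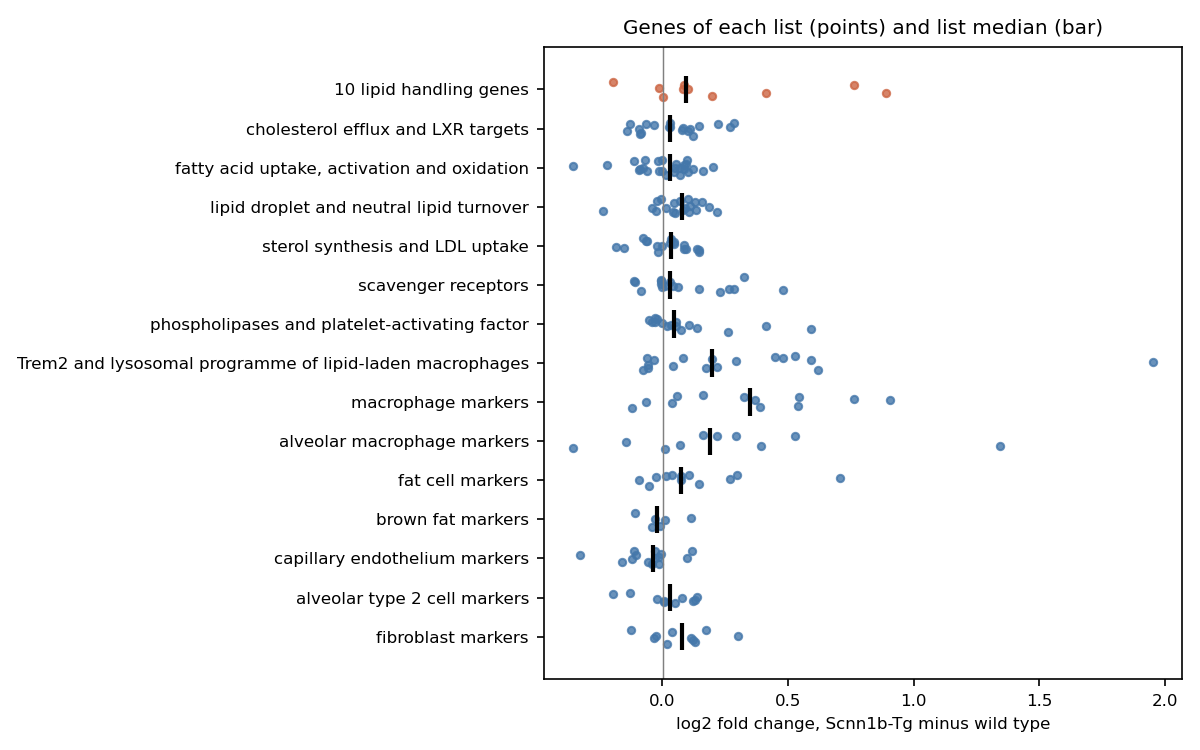
Log2 fold change (horizontal axis, Scnn1b-Tg minus wild type) of the measured genes of each list; each point is 1 gene, black bars are list medians and the grey line is the median of all genes, 0.01. The medians are 0.10 for the 10 lipid handling genes, 0.35 for macrophage markers and 0.20 for the Trem2 and lysosomal programme, and the other lists lie between -0.03 and 0.19.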

How the data were processed

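Lung RNA was labelled with Affymetrix whole-transcript chemistry, per the labels' protocols. The authors deposited 1 linear intensity for each probe set and array, for which the submitters' processing notes name RMA without settings. Of 28815 probe sets, 21780 named a single gene, and the brightest per gene over the 6 arrays was kept, which left 19935 genes. Log2 intensities of 3 Scnn1b-Tg and 3 wild-type arrays were compared by lmFit and eBayes of limma 3.58.1 (R 4.3.3; genotype as the only term; two-sided, Benjamini-Hochberg adjustment over all genes, threshold 0.05). Errors are SE of the fit or SD of 3 arrays. The members and the 14 other lists, of whose 224 entries 207 were measured, were chosen with earlier results of these data known, and some genes stand on several lists. From each list the 2 genes with the largest absolute log2 fold change were named, and for the 3 members with the widest range the 3 nearest profiles among genes with a proper name. Alternatives covered the normalization (quantile, median), dim genes, the handling of probe sets, the variance model, array weights, a replicate block, 16 taken off each intensity, and arrays left out. On simulated data with 200 of 19935 genes changed the script recovered 96.1% of genes set 1 apart on the log2 scale. At 0.5 apart it recovered 77.2%, with 10.3 false calls per run. The simulated noise was normal and drawn from the fitted prior variance, so these shares do not give the power on the real arrays. There, Mmp12 with a log2 fold change of 1.95 was not called (adjusted p = 0.225 in limma). Replicate numbers occur in both genotypes but nothing in the labels pairs them.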

Additional observations from a re-analysis of the deposited data

How the results depend on the processing

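All 16 alternatives kept the sign of Gpnmb, Fabp4, Plin2, Pla2g7, Lpl, Cd36 and Abcg1. Fabp5 turned to 0.028 with array weights and 0.098 without both arrays that stood apart, and with 1 array left out at a time it ran from -0.049 to 0.050. Abca1 turned to -0.0010 after quantile normalization, -0.022 after median centring and -0.012 with array weights, and ran from -0.093 to 0.097 with 1 array left out. With 1 array left out Apoe ran from -0.036 (without wild type replicate 1) to 0.18, and it was 0.21 without both arrays that stood apart. The cause of these turns was not tested. The number of the 10 genes past the threshold was 1 (Pla2g7) without the 6645 dimmest genes, with a robust intensity trend of the variance, and with 16 taken off each intensity, and 0 in the other 13 alternatives. Over all genes the calls numbered 39, 36 and 23 in those fits in that order, and 6 without both arrays that stood apart. With 1 array left out they ran from 0 (without wild type replicate 3; 1011 genes at an unadjusted p under 0.05 in limma) to 5 (without Scnn1b-Tg replicate 3). With replicate number as a block 3 genes were called and Pla2g7 had an adjusted p of 0.195 in limma. Same-numbered arrays deviated together with r across genes of 0.03, 0.03 and 0.04, and the other pairs ran from -0.06 to 0.02. All of these values are small, and they cannot settle whether the numbers pair the samples. Intensities start near 18.3 on every array, and if a constant was added before deposit, log2 fold changes of dim genes such as Fabp4 and Gpnmb are understated: with 16 taken off they were 1.04 and 0.54.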
